A study of Mus musculus with 23 samples.

Results

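The genes described are 10 that encode the 2 cytoplasmic actins and the proteins that turn actin filaments over: Actb, Actg1, Cfl1, Dstn, Pfn1, Pfn2, Tmsb4x, Tmsb10, Cap1 and Gsn. They were chosen by name, are 10 of the 55487 gene identifiers in the count files, and all 10 had counts in all 12 soma libraries. RNA came from hippocampal neurons of C57Bl/6 mouse pups (postnatal day 1) grown in microfluidic chambers, which let axons cross into a compartment of their own. All cultures, controls included, received magnetic nanoparticles (MNPs, 5 µg/ml). Stretched cultures were held in a magnetic field gradient of 50 T/m between DIV 1 and DIV 6 (days in vitro), whereas controls had a null gradient. There were 5 control and 6 stretched libraries of axons, and 6 of each kind for somata. The labels call the axonal samples a pure axonal preparation and the soma samples total cell culture, so the soma side also holds dendrites, proximal axons and any other cells of the hippocampus. The labels do not say that replicates came from separate cultures or litters, so p-values measure only the spread between libraries, which may be technical.

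Actin monomers (G-actin) add to the growing end of filaments (F-actin) and leave from the other end, and the growth cone at the tip of an axon advances by this cycle. Cofilin (Cfl1) and destrin (Dstn) sever filaments and speed their loss, CAP1 recharges monomers with ATP, profilins (Pfn1, Pfn2) deliver them to growing ends, β-thymosins (Tmsb4x, Tmsb10) hold them in reserve, and gelsolin (Gsn) severs and caps in response to calcium. Actb mRNA is a textbook case of a transcript carried into axons and dendrites, and the zipcode-binding protein that carries it reads a short sequence in its 3′ UTR.

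The 2 actins are near-copies at the DNA level, and this bears on how reads are told apart. Their coding sequences are 1128 bases each and 88.65% identical. The first 30 bases from the start codon are shown because they encode the stretch in which the 2 proteins differ most, and capitals mark the 8 bases that differ.
Actb: atggaTgaCgaTatcgcTgcGctGgtcGtC
Actg1: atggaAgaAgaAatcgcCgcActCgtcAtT
The β-thymosin pair is shown whole because both are among the most abundant members in axons. Each coding sequence has 135 bases with its stop codon, the identity is 70.37%, and capitals mark the 40 bases that differ.
Tmsb4x: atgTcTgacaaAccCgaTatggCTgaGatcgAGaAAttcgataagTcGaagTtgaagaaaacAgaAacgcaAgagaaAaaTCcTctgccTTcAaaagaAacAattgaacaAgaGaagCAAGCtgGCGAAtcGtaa
Tmsb10: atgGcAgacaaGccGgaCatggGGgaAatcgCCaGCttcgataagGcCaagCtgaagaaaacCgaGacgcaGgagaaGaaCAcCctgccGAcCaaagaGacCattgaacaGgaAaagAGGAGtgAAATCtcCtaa
Identity was 68.59% for Cfl1 and Dstn and 61.47% for Pfn1 and Pfn2. No stretch of 150 bases, the read length, of the principal Actb transcript is shared exactly with another gene's annotated transcript, nor of Dstn, Pfn1, Pfn2, Tmsb4x, Cap1 or Gsn. For Actg1 43.5% of such stretches are shared with the pseudogenes Gm12715, Gm16385 and Gm8399, for Cfl1 9.3% with Snx32 and for Tmsb10 9.06% with Gm9844. Levels of Actg1, and less so of Cfl1 and Tmsb10, are therefore uncertain where the authors' counting split or left out such reads. The Actg1 pseudogenes together held between 0.376 and 1.91 CPM (counts per 1000000 counted reads) in any library, against at least 378 CPM for Actg1. Snx32 held 0 to 248 CPM in a library, with a mean of 64.6 CPM over all 23 libraries, against at least 1519 CPM for Cfl1. Gm9844 held 2.48 to 17.8 CPM against at least 834 CPM for Tmsb10.

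In the build GRCm38 (mm10), the minus-strand members are Actb at chr5:142903115-142906754, Actg1 at chr11:120345690-120348542, Pfn1 at chr11:70651850-70654644, Pfn2 at chr3:57841895-57848079, Tmsb4x at chrX:167207093-167209315, Tmsb10 at chr6:72957347-72958748 and Cap1 at chr4:122859047-122886056. On the plus strand lie Cfl1 at chr19:5490455-5495201, Dstn at chr2:143915320-143943324 and Gsn at chr2:35256380-35307892. A zipcode-like pattern was searched on the transcript strand of each 3′ UTR: CGGAC, then 10 to 25 bases, then ACAC or a variant of it with T as the last letter, C as the first, or both. Of the 10 members only Actb held it, at bases 2 to 29 of its 3′ UTR (chr5:142903769-142903796, minus strand), with the matched parts in capitals.
Actb 3′ UTR match: CGGACtgttactgagctgcgttttACAC
The pattern occurs in 778 of 20684 principal transcripts with a 3′ UTR (3.76%), so a match is a description and not a site, and its absence elsewhere says only that these letters are not there. Actins are also known targets of the serum response factor, which binds the CArG box. RefSeq promoter windows (250 bases before to 50 after a start) were at hand for 9 members, all but Actb, and 1 of their 13 windows held a CArG box, against 535 of all 32851 windows (1.63%). It lies in Actg1, whose 250 bases before the start (chr11:120348496-120348745, minus strand, GRCm38.p6) are shown with the box in capitals because no other member window held one. This match too is a description and not a site. The part of the serum response factor in the members' values was not tested.
Actg1 promoter: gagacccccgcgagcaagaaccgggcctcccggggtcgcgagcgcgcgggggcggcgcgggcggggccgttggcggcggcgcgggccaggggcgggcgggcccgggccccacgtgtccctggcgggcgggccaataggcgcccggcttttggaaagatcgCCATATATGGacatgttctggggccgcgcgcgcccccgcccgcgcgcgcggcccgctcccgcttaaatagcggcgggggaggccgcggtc

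Libraries held 16.369 to 43.049 M counts (M stands for 1000000), at which 3 counts correspond to 0.0697 to 0.183 CPM. Soma libraries detected 22452 to 24575 genes and axonal ones 4263 to 10242. Neuron markers summed to 6960 to 8836 CPM in somata and 2892 to 5700 CPM in axons, with all 7 detected in at least 1 library of each group. Tubb3, Map2, Stmn2 and Gap43 had counts in every axonal library. Syn1 had counts in 1 of 5 control and 4 of 6 stretched axon libraries, Rbfox3 in 4 of 5 and 2 of 6, and Snap25 in 5 of 5 and 5 of 6. Astrocyte RNA was present on both sides: Gfap, the astrocyte intermediate filament, was at 3546 to 10496 CPM in somata and at 2867 to 20253 CPM in the axonal libraries, which goes against the label of a pure axonal preparation. In control cultures the rest of the astrocyte list averaged lower in axons than in somata, from Slc1a3 (718 against 813 CPM) to Aqp4 (31.2 against 311 CPM) and S100b (0.558 against 9.16 CPM). In stretched cultures Gja1 (451 against 199 CPM) and S100b (8.56 against 7.92 CPM) averaged higher in axons and the rest lower. Aqp4 had counts in 1 of 6 stretched axon libraries. Microglia markers summed to 0 to 736 CPM in axonal and 51.9 to 128 CPM in soma libraries, and Aif1, Csf1r, Cx3cr1, C1qa and C1qc were at 0 in all control axons. Fibroblast and mural markers summed to 102 to 3055 CPM in axons and 283 to 410.2 CPM in somata. The part of these cells in the values below was not tested. On the first principal component of the somata, which held 53.2% of the variance, control soma replicate 4 (19.2) lay among the stretched libraries (9.98 to 26) and apart from the other controls (-31.4 to -21.5).

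The 10 members took a large part of each transcriptome: 1.72% ± 0.205 of counts in control somata, 1.28% ± 0.0527 in stretched somata, 1.74% ± 0.150 in control axons and 1.60% ± 0.343 in stretched axons (SD, n = 6, 6, 5 and 6). Their order differed between the compartments. To compare genes, CPM was divided by the length of the principal transcript in kilobases (kb). In control somata Actb led with a level of 4687 ± 641 CPM per kb, followed by Tmsb4x with 2719 ± 409, Tmsb10 with 1909.8 ± 204 and Cfl1 with 892 ± 139 (SD, n = 6). Pfn1 (468 ± 20.1 CPM per kb) and Actg1 (447 ± 60.5) came next and did not differ beyond their spread, then Dstn (294 ± 32.2), Pfn2 (223 ± 14.997) and finally Gsn (63.6 ± 23.2) and Cap1 (51.6 ± 6.55), which again overlapped (SD, n = 6). In control axons the β-thymosins led, Tmsb4x with a level of 7818 ± 950.4 CPM per kb and Tmsb10 with 4237 ± 789, ahead of Actb with 1710.1 ± 811, Pfn1 with 1274 ± 299.6 and Cfl1 with 1053 ± 71.3 (SD, n = 5). The last 3 of these overlapped, as did Actg1 (259.8 ± 56.7 CPM per kb), Dstn (199 ± 160), Pfn2 (175 ± 131) and Gsn (113 ± 179), and Cap1 was last with 5.83 ± 13.0 (SD, n = 5). Stretched cultures had the same first 5 genes in the same order in each compartment. This order depends on the division by length. By CPM alone, control axons held 3283 ± 1557 for Actb and 2924 ± 544 for Tmsb10, which overlapped. Cfl1, at 2478 ± 168 CPM, was then above Pfn1, at 1097 ± 258 CPM (SD, n = 5).

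**Figure D1:**
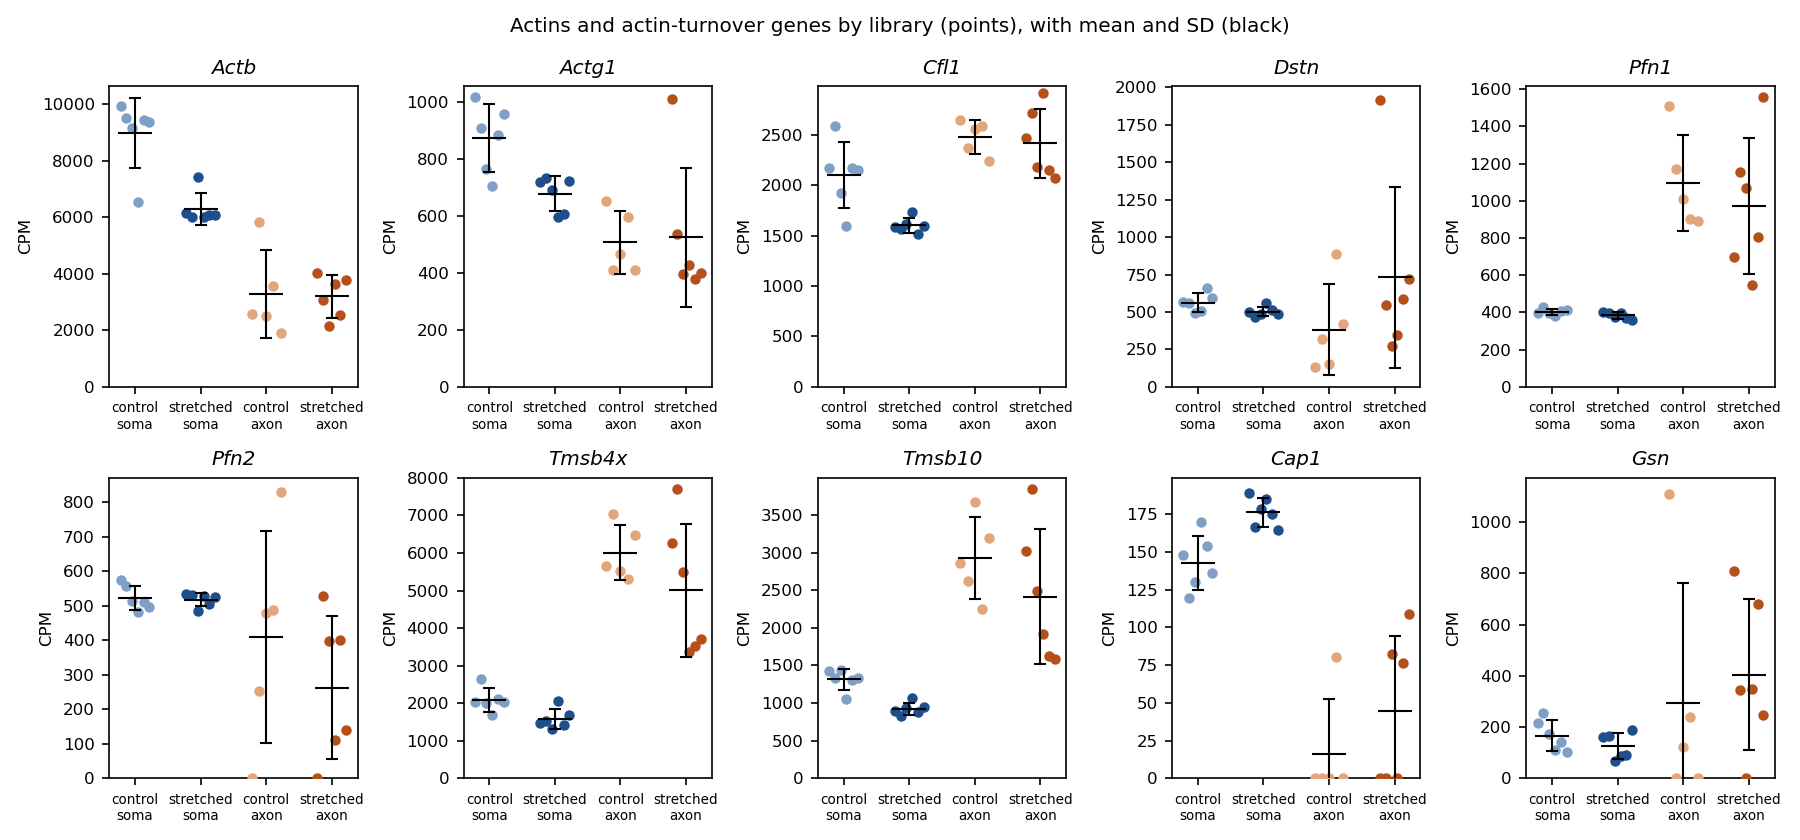
CPM of each member (vertical axes, each from 0) in the 4 groups (horizontal axes). Each point is a library and black marks are the mean and SD. Tmsb4x, Tmsb10 and Pfn1 sit higher in all axonal libraries than in any soma library of the same condition, Actb sits lower, and Cap1 is at 0 in 7 of 11 axonal libraries.

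The first comparison asks which transcripts the axonal compartment holds relative to the soma side. In control cultures 3 members were higher in axons (Tmsb4x, Pfn1 and Tmsb10), 2 were lower (Actb and Actg1) and 5 did not pass an adjusted p of 0.05 in edgeR's quasi-likelihood test. Of all 14728 genes tested 35.3% passed, 0.856% higher and 34.4% lower in axons, and 78.8% of those lower were at 0 in every control axon library. Among the 2342 genes that averaged 100 CPM or more over these libraries, 3.80% were higher and 2.09% lower. The median log2 fold change was -0.29 over the members and -1.40 over all genes tested. By CPM alone, 3 members were higher without overlap, against 0.978% of genes, and 3 were lower, against 40.6% (41.6% in either direction). In stretched cultures the same 3 members were higher and the same 2 lower by the test, against 0.843% and 28.4% of 14466 genes (29.3% in all), and among the 2381 genes that averaged 100 CPM or more 3.65% were higher and 3.28% lower. By CPM alone 4 members were higher without overlap there, against 1.35% of genes, and 2 were lower, against 34.6% (35.9% in either direction). Without the filter on low counts only Tmsb4x and Actb passed. Tmsb10, Pfn1 and Actg1 then had edgeR adjusted p-values of 0.178, 0.11 and 0.0940 in control and 0.127, 0.178 and 0.156 in stretched cultures, with unchanged directions. Limma voom did not call Actg1 in control (adjusted p = 0.0558) or Pfn1 in stretched cultures (adjusted p = 0.0543). Fewer cells or processes and less RNA per cell cannot be told apart in such bulk samples, and all levels are relative to the library.

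Tmsb4x, the main β-thymosin, was the most abundant member per kb in the axonal compartment. Control axons held 5668, 7034, 5530.2, 5299 and 6488 CPM (replicates 1, 2, 3, 5 and 7), and control somata 1689 at the lowest, 2031 at the median and 2654 at the highest. The groups did not overlap. The log2 fold change, axon over soma, was 1.26 (SE 0.11, edgeR adjusted p = 6.7e-06), or 2.39-fold higher. In stretched cultures axons held 3369, 4591 and 7693 CPM (lowest, median, highest) and somata 1323, 1507 and 2065, again without overlap, and the log2 fold change was 1.13 (SE 0.18, edgeR adjusted p = 0.0002). Tmsb10, its close relative, held 2868, 2623, 3675, 2252 and 3200.3 CPM in control axons against 1053, 1337 and 1439 in control somata (lowest, median, highest). All 5 axonal values were above all 6 soma values, by 0.89 on the log2 scale (SE 0.14, edgeR adjusted p = 0.00027). In stretched cultures the levels were 1588, 2205 and 3849 CPM in axons and 834, 911 and 1065 in somata, with no overlap and a difference of 0.85 on the log2 scale (SE 0.17, edgeR adjusted p = 0.0014).

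Pfn1, the ubiquitous profilin, was also higher in axons. Control axons held 1512, 1169.7, 1011, 901 and 891 CPM and control somata 378, 402 and 429 (lowest, median, highest), so that the lowest axonal value was above the highest soma value. The log2 fold change was 1.17 (SE 0.16, edgeR adjusted p = 8.3e-05), or 2.25-fold. In stretched cultures Pfn1 was at 545, 936 and 1557 CPM in axons and 358, 387 and 405 in somata, without overlap, higher in axons by 0.88 on the log2 scale (SE 0.29, edgeR adjusted p = 0.0347). This last call held in 5 of the 12 fits that left out 1 library. It was lost without stretched axon replicate 4 or without any 1 of the 6 stretched soma libraries, with an adjusted p of up to 0.0735. Pfn2, the profilin enriched in brain, went from near absence to high levels between axonal libraries: 1.56, 253, 479.8, 487 and 830.1 CPM in control axons, and 0, 111, 139, 397, 399 and 529 CPM in stretched axons. In somata it was steady, at 523 ± 35.1 CPM in control and 518 ± 20.0 CPM in stretched cultures (SD, n = 6 each). The axon over soma log2 fold changes were -0.56 (SE 0.89, edgeR adjusted p = 0.814) and -1.45 (SE 1.18, adjusted p = 0.565), which at this spread leaves a wide range. Without stretched axon replicate 1, the library at 0, the second was -1.18 with an adjusted p of 0.0269.

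Both actin mRNAs were lower in axons as a share of the library, although per kb Actb was still the third most abundant member there. Actb was at 2587, 5849, 2493, 3587 and 1901 CPM in control axons, with replicate 2 well above the rest, and at 6542, 9412 and 9946 CPM in control somata (lowest, median, highest). No axonal value reached the lowest soma value. The log2 fold change was -1.73 (SE 0.26, edgeR adjusted p = 0.00014), or 3.31-fold lower. In stretched cultures Actb was at 2141, 3370.2 and 4039 CPM in axons and 6008, 6076 and 7430 in somata, again without overlap, and the log2 fold change was -1.46 (SE 0.16, edgeR adjusted p = 1.2e-05). Actg1, cytoplasmic γ-actin, was at 652, 411, 467, 595 and 410.4 CPM in control axons against 704, 896 and 1019 in control somata. These groups did not overlap, and the log2 fold change was -1.03 (SE 0.22, edgeR adjusted p = 0.0019). In stretched cultures the groups overlapped, with 378, 415 and 1009 CPM in axons and 596, 703 and 733 in somata, and the log2 fold change was -0.91 (SE 0.21, edgeR adjusted p = 0.0042). The second call was lost without stretched axon replicate 5 (adjusted p = 0.054).

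Cofilin mRNA was abundant in both compartments. Cfl1 was at 2643, 2367, 2557, 2583 and 2242 CPM in control axons and at 1599, 2157 and 2588 in control somata (lowest, median, highest). The ranges overlapped and the log2 fold change was -0.01 (SE 0.14, edgeR adjusted p = 0.979). In stretched cultures the CPM values did not overlap, with 2075, 2325 and 2915 in axons and 1519, 1592 and 1731 in somata, yet the log2 fold change was 0.10 (SE 0.11, edgeR adjusted p = 0.731). The test scales libraries by the trimmed mean of M values (TMM), and scaling by total counts alone moved the median of all genes by 0.13 in control and 0.40 in stretched cultures on the log2 scale. On total counts Cfl1 was higher in stretched axons by 0.60 (SE 0.10, edgeR adjusted p = 0.00046), and Actg1 at -0.37 did not pass (adjusted p = 0.470). The 3 higher members and Actb kept their direction and their call under both scalings. Dstn, the second severing protein, varied from 129 to 884 CPM in control and from 272 to 1917 CPM in stretched axons, against 492 to 663 and 467 to 557 CPM in the matching somata. Its log2 fold changes of -0.74 (SE 0.50, edgeR adjusted p = 0.386) and -0.02 (SE 0.38, adjusted p = 0.994) did not pass. Without control axon replicate 5 the first was -1.46 with an adjusted p of 0.0049, and limma voom called it lower at -1.37 (adjusted p = 0.0447).

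The recycling and severing genes Cap1 and Gsn were detected in some axonal libraries only. Cap1 was at 0 in 4 of 5 control axons and at 80.7 CPM in replicate 5, and at 0 in 3 of 6 stretched axons with 76.2, 82.3 and 109 CPM in the others. Somata held 143 ± 18.1 CPM in control and 176 ± 9.69 CPM in stretched cultures (SD, n = 6 each), and no axonal value reached the soma values. The difference did not pass in either condition (edgeR adjusted p = 0.471 and 0.566). Limma voom called Cap1 lower in both, with adjusted p-values of 0.00059 and 0.004. Without control axon replicate 5, Cap1 had no count in any control axon, and the edgeR adjusted p was 1.2e-05. In simulated data genes without a change were often called lower when all axonal libraries were at 0, so that p is not read as a measure of certainty. Gsn was at 1109.5, 0, 123, 239 and 0 CPM in control axons and at 0, 246, 344, 347, 679 and 809 CPM in stretched axons. Its soma ranges of 101 to 254 and 67.5 to 188 CPM lay within these, and neither difference passed (edgeR adjusted p = 0.925 and 0.718). Without stretched axon replicate 4, the library at 0, the second had a log2 fold change of 1.41 and an adjusted p of 0.0184. With limma voom the Gsn log2 fold changes turned from 0.52 and 1.15 to -5.18 and -1.38, neither passing (adjusted p = 0.0669 and 0.567).

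**Figure D2:**
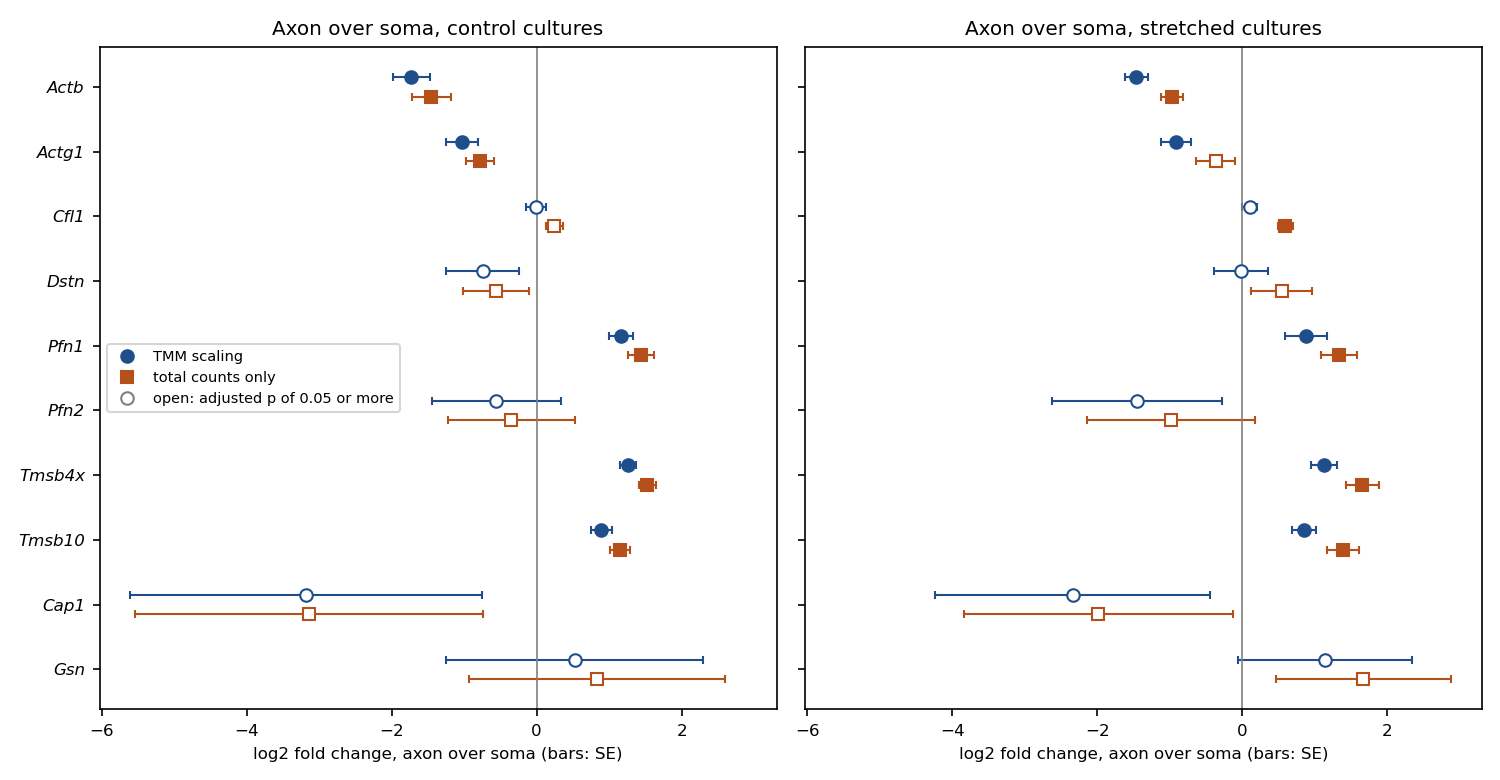
Log2 fold change of each member, axon over soma (horizontal axes), in control and stretched cultures, with TMM scaling (circles) and total counts only (squares). Bars are SEs and filled symbols have an adjusted p under 0.05. Tmsb4x, Tmsb10 and Pfn1 lie to the right of 0 and Actb to the left under both scalings, while the SEs of Cap1, Gsn and Pfn2 are wide.

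The members that were higher in axons have the shortest transcripts: 0.69 kb for Tmsb10, 0.768 kb for Tmsb4x and 0.861 kb for Pfn1, with the others between 1.911 and 2.768 kb. Across the 10 members Spearman's rank correlation of the axon over soma log2 fold change with principal transcript length was -0.576 in control and -0.37 in stretched cultures. Across the 2351 genes of at least 100 CPM it was -0.286 and -0.498. Without that minimum it was weaker, at -0.095 across 13356 genes in control and -0.218 across 13198 genes in stretched cultures. Genes share the libraries and are not independent, so these are descriptions, and the part of length in the members' values was not tested.

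A ratio of 2 related genes within a library does not depend on how libraries are scaled. The ratio of (CPM + 1) was compared for 4 pairs in 4 comparisons by exact two-sided permutation tests, with adjustment over the 16 tests. These ratios are of CPM and not corrected for length, so their change between groups is read and not their sign. The balance of Pfn1 to Pfn2 was shifted towards Pfn1 in axons. In somata the mean log2 ratio of Pfn1 to Pfn2 was -0.37 ± 0.092 in control and -0.43 ± 0.065 in stretched cultures (SD, n = 6 each). In axons it was 2.69 ± 3.72 in control and 3.13 ± 3.23 in stretched cultures (SD, n = 5 and 6), and each of the 11 axonal libraries was above all 12 soma libraries. The difference was 3.07 in control cultures (exact permutation p = 0.0043, adjusted p = 0.0346). In stretched cultures it was 3.56 (exact permutation p = 0.0022, adjusted p = 0.0346), each p being the smallest these permutations can give. The size in axons rests on 2 libraries with Pfn2 at 1.56 and 0 CPM. Without control axon replicate 1 the control difference was 1.44, with an exact permutation adjusted p of 0.0577. With any 1 library left out, the control test passed in 2 of 11 cases, where the adjusted p ran from 0.0433 to 0.0577, and the stretched test in 12 of 12. In each case all axonal ratios stayed above all soma ratios, so the p was again the smallest possible. Whether it passed was set by the number of libraries and the other tests in the adjustment, and does not measure how firm the shift is.

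The other pairs did not pass the adjusted threshold. The mean log2 ratio of Actb to Actg1 was 3.36 ± 0.1295 in control somata, 3.21 ± 0.164 in stretched somata (SD, n = 6 each), 2.61 ± 0.720 in control axons and 2.67 ± 0.454 in stretched axons (SD, n = 5 and 6). The axon minus soma differences were -0.76 (exact permutation p = 0.0303, adjusted p = 0.0866) and -0.54 (exact permutation p = 0.0195, adjusted p = 0.0779). The first passed without control axon replicate 2, at -1.06 (exact permutation adjusted p = 0.0433). The log2 ratio of Tmsb4x to Tmsb10 was 0.66 ± 0.186 in control somata and 1.05 ± 0.312 in control axons (SD, n = 6 and 5), a difference of 0.39 (exact permutation p = 0.0476, adjusted p = 0.0952). In stretched cultures the difference of this pair was 0.29 (exact permutation p = 0.0108, adjusted p = 0.0577), and it passed without stretched axon replicate 5 (exact permutation adjusted p = 0.0231). Cfl1 to Dstn differed by 1.16 between control axons and somata (exact permutation p = 0.0433, adjusted p = 0.0952), and passed without control axon replicate 5, at 1.53 (exact permutation adjusted p = 0.0433).

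**Figure D3:**
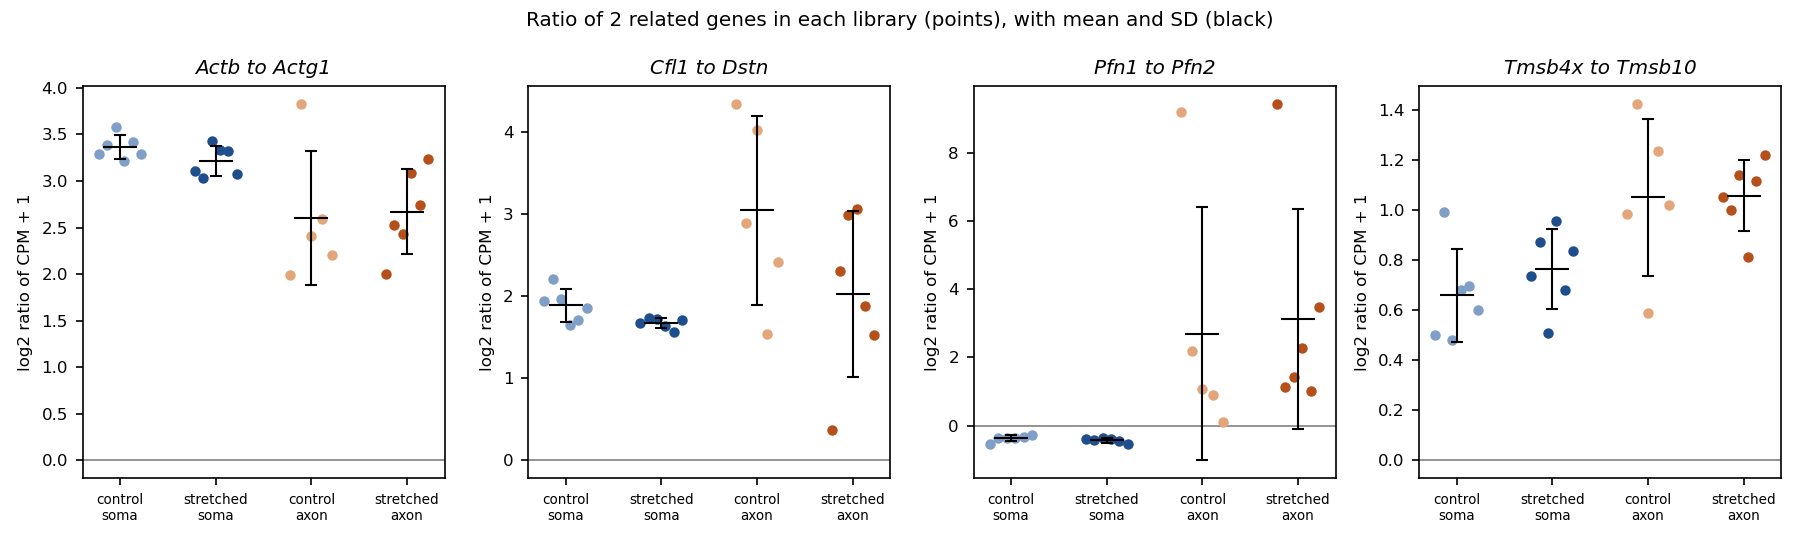
Log2 ratio of (CPM + 1) of 2 related genes (vertical axes) in each library (points) of the 4 groups, with mean and SD in black and a grey line at equal CPM. Pfn1 to Pfn2 lies below 0 in all 12 soma libraries and above 0 in all 11 axonal ones, while the other pairs stay above 0 throughout.

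The second comparison asks what stretch changed on the soma side. In stretched somata 5 members fell (Actb, Tmsb10, Tmsb4x, Cfl1 and Actg1), 1 rose (Cap1) and 4 did not pass (Dstn, Gsn, Pfn1 and Pfn2). Of all 15632 genes tested 25.1% passed, 11.2% higher and 13.9% lower. Among the 2367 genes that averaged 100 CPM or more, which include all 10 members, 21.3% were higher and 26.7% lower. The median log2 fold change was -0.42 over the members and -0.03 over all genes. The ranges of the 2 groups overlapped for all 10 members, while 4.11% of genes had no overlap (1.84% higher and 2.27% lower). Marker levels moved between these groups too. Neuron markers summed to 8122 ± 680 CPM in control and 7237 ± 187 CPM in stretched somata, with ranges of 7186 to 8836 and 6960 to 7410 CPM. Microglia markers summed to 87.8 ± 25.3 and 61.9 ± 8.68 CPM, oligodendrocyte lineage markers to 57.9 ± 14.0 and 40.1 ± 8.74 CPM, and ependymal markers to 42.0 ± 13.7 and 61.0 ± 20.3 CPM in control and stretched somata (SD, n = 6 each). Astrocyte markers were at 7953 ± 3298 and 7770 ± 2706 CPM (SD, n = 6 each). The part of these differences in the members' values was not tested.

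Actb and Tmsb10 fell most. Actb was at 6542, 9412 and 9946 CPM in control somata (lowest, median, highest) and at 6008, 6076 and 7430 CPM in stretched somata. The overlap came from the 2 libraries numbered 4, since the other 5 controls were at 9154 CPM or more and the other 5 stretched libraries at 6167 CPM or less. The log2 fold change, stretched over control, was -0.56 (SE 0.10, edgeR adjusted p = 0.0043), or 1.47-fold lower. Actg1 fell by 0.41 on the log2 scale (SE 0.098, edgeR adjusted p = 0.0106), from 704, 896 and 1019 CPM to 596, 703 and 733 CPM (lowest, median, highest). Among the monomer-holding β-thymosins, Tmsb10 went from 1053, 1337 and 1439 CPM to 834, 911 and 1065 CPM. Only control replicate 4 and the highest stretched library overlapped, and Tmsb10 fell by 0.55 (SE 0.085, edgeR adjusted p = 0.0029). Tmsb4x, at 1689, 2031 and 2654 CPM in control and 1323, 1507 and 2065 CPM in stretched somata, fell by 0.44 (SE 0.12, edgeR adjusted p = 0.0154). Cofilin mRNA fell as well: Cfl1 was at 1599, 2157 and 2588 CPM in control and 1519, 1592 and 1731 CPM in stretched somata, a difference of -0.43 on the log2 scale (SE 0.099, edgeR adjusted p = 0.009).

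Cap1, which recharges the monomers that cofilin releases, moved the other way. It was at 119, 142 and 169.8 CPM in control and 165, 177 and 189 CPM in stretched somata, with control replicate 4 the highest of the controls. It rose by 0.27 on the log2 scale (SE 0.088, edgeR adjusted p = 0.0378). This call is fragile: it held in 5 of 12 fits without 1 library, and was lost without control soma replicate 1, 2, 3 or 6 or stretched soma replicate 1, 5 or 6, with an adjusted p of up to 0.0865. The second severing gene Dstn was at -0.21 on the log2 scale (SE 0.084, edgeR adjusted p = 0.0779), which passed without control soma replicate 4 (-0.25, adjusted p = 0.018) or replicate 3 (-0.25, adjusted p = 0.0385). The profilins were the steadiest members, with -0.11 for Pfn1 (SE 0.065, edgeR adjusted p = 0.216) and -0.06 for Pfn2 (SE 0.067, adjusted p = 0.568). Gsn, at 101 to 254 CPM in control and 67.5 to 188 CPM in stretched somata, had a log2 fold change of -0.44 with a wide error (SE 0.29, edgeR adjusted p = 0.278).

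Short transcripts tended to be lower in stretched somata throughout the transcriptome. Spearman's rank correlation of log2 fold change with principal transcript length was 0.527 across 13853 genes, 0.668 across the 2351 with at least 100 CPM, and 0.455 across the 10 members. With offsets for transcript length and GC content in the fit, 3 of the 6 calls were kept: Actb at -0.34 (edgeR adjusted p = 0.0128), Cfl1 at -0.27 (adjusted p = 0.0319) and Cap1 at 0.35 (adjusted p = 0.0269). Actg1 (-0.18, edgeR adjusted p = 0.0976), Tmsb4x (-0.22, adjusted p = 0.138) and Tmsb10 (-0.19, adjusted p = 0.0625) no longer passed. Pfn1 turned to 0.18 and Pfn2 to 0.11, with edgeR adjusted p-values of 0.105 and 0.170. The offsets used the longest annotated transcript of each gene and not the principal one. For Pfn1 these differ most among the members, at 1997 and 861 bases.

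Soma libraries also fell into 2 sets by Eif2s3y, a gene of the Y chromosome, which was above 20 CPM in 3 control (1, 2 and 3) and 3 stretched libraries (1, 2 and 8) and below it in the libraries numbered 4, 5 and 6 of both groups. Axonal libraries could not be placed, since Eif2s3y was at 0 in 9 of 11. Within the high set Actb was at -0.65 (edgeR adjusted p = 0.0018). Within the low set it was at -0.41 (adjusted p = 0.274) and 0 members passed, as did 0 of all genes tested. Without control soma replicate 4, chosen for removal after the data were seen, Actb in the low set was at -0.59 (edgeR adjusted p = 0.0033). With Eif2s3y set as a covariate over all 12 libraries Dstn (-0.21, edgeR adjusted p = 0.043) and Gsn (-0.46, adjusted p = 0.0069) passed as well. The main fit called 3929 genes and 6 members. Over the 14 alternative fits of somata genes called ran from 0 to 5667 and members called from 0 to 8. These member counts are therefore not read as a result about the members.

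**Figure D4:**
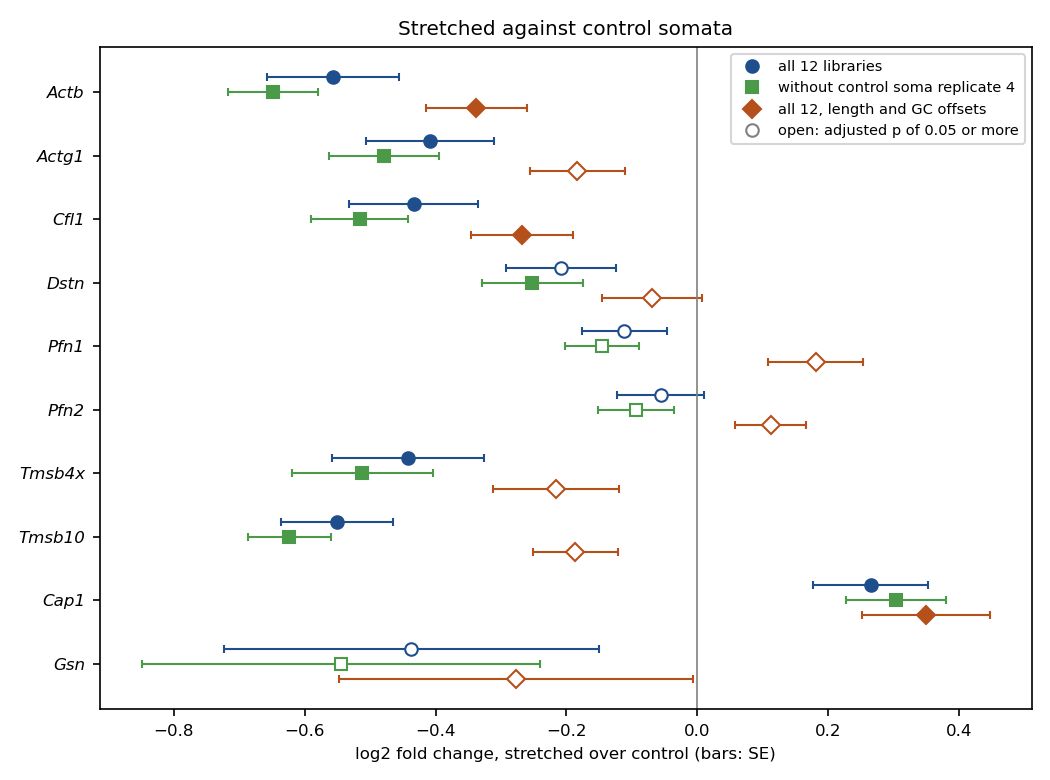
Log2 fold change of each member in somata, stretched over control (horizontal axis), with all 12 libraries (circles), without control soma replicate 4 (squares) and with length and GC offsets (diamonds). Bars are SEs and filled symbols have an adjusted p under 0.05. Without that library the falls are larger (Actb -0.65), and with the offsets they are smaller (Actb -0.34), with Pfn1 and Pfn2 to the right of 0 and Cap1 at 0.35.

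Over the 12 soma libraries the genes whose levels followed Actb most closely were Rps14, a ribosomal protein (Pearson r = 0.990), Aprt, an enzyme of adenine salvage (0.989), Naxe, a repair enzyme of damaged NADH (0.988), Clpp, a mitochondrial protease (0.987), and Atp5g1, a subunit of ATP synthase (0.986), out of 9529 genes with at least 10 CPM. Among the members r with Actb was 0.918 for Tmsb10, 0.902 for Cfl1, 0.872 for Actg1, 0.692 for Tmsb4x, 0.662 for Dstn, 0.649 for Pfn1, 0.369 for Gsn, 0.36 for Pfn2 and -0.778 for Cap1. These values span both conditions and share libraries and depth, and are given as a description.

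The wider actin machinery was read from 112 other genes on 11 lists. In somata 108 were tested, of which 23 rose and 17 fell, with a median log2 fold change of 0.06. These are shares of 21.3% and 15.7%, against 11.2% and 13.9% of all genes tested and 21.3% and 26.7% of genes that averaged 100 CPM or more. In the Arp2/3 complex, which nucleates branched filaments, 2 of 9 rose and 3 fell: Actr2 went from 403 ± 129 to 713 ± 74.96 CPM (SD, n = 6 each; log2 fold change 0.79, edgeR adjusted p = 0.0065) and Arpc1b from 112 ± 24.5 to 68.4 ± 6.04 CPM (-0.76, adjusted p = 0.0044). Of the 11 genes for its activators 5 rose and 1 fell, among them Abi2, a subunit of the WAVE complex, from 279 ± 78.1 to 455 ± 39.0 CPM (0.67, edgeR adjusted p = 0.0065). Formins and other nucleators had 4 of 19 higher and none lower, including Daam2 at 0.72 (edgeR adjusted p = 0.036), which passed in 6 of 12 fits without 1 library and was lost with length and GC offsets (0.55, adjusted p = 0.153).

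The list of relatives of cofilin and CAP and of genes that control them had 5 of 19 higher and 4 lower, coronins and a twinfilin among them. LIM kinases, which inactivate cofilin, differed in direction. Limk1 was at 28.2 ± 14.7 CPM in control and 13.5 ± 1.64 CPM in stretched somata (SD, n = 6 each; log2 fold change -1.10, edgeR adjusted p = 0.0145). Limk2, the more abundant of the pair by CPM, rose from 114 ± 11.5 to 139 ± 12.1 CPM (0.24, edgeR adjusted p = 0.0429), a call kept in 4 of 12 fits without 1 library and lost with the offsets (0.22, adjusted p = 0.0652). The phosphatase Ssh2, which reactivates cofilin, rose from 67.2 ± 22.6 to 109 ± 8.54 CPM (0.67, edgeR adjusted p = 0.0113). Its relative Ssh1 rose by 0.51 (edgeR adjusted p = 0.0281), kept in 8 of 12 fits without 1 library and at an adjusted p of 0.0502 with the offsets. Pdxp, a second cofilin phosphatase, fell (-0.88, adjusted p = 0.0319), a call kept in 6 of 12 fits without 1 library and lost with the length offsets (-0.44, adjusted p = 0.226). In non-muscle myosin II, 2 of 7 rose and 3 fell. The heavy chain Myh9 was at 0.54 (edgeR adjusted p = 0.0478, kept in 2 of 12 fits without 1 library and lost with the offsets at 0.41, adjusted p = 0.0855), and the regulatory light chain Myl9 went from 33.3 ± 8.84 to 19.7 ± 1.63 CPM (-0.80, adjusted p = 0.0062). Rac1, the GTPase upstream of WAVE, was at 54.0 ± 37.4 CPM in control and 21.8 ± 3.17 CPM in stretched somata (log2 fold change -1.35, edgeR adjusted p = 0.0191). On further lists 2 of 11 tested capping and severing genes rose and 3 fell, 1 of 14 crosslinkers rose and 1 fell, 1 of 2 other actins fell, and 1 of 4 Actb mRNA-binding proteins rose. None of Srf, Mrtfa and Mrtfb passed, with log2 fold changes of 0.44, 0.43 and 0.37 (edgeR adjusted p = 0.141, 0.0514 and 0.0566). The zipcode-binding protein Igf2bp1 was at 7.52 ± 2.30 CPM in control and 8.29 ± 1.43 CPM in stretched somata (SD, n = 6 each; edgeR adjusted p = 0.761).

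**Figure D5:**
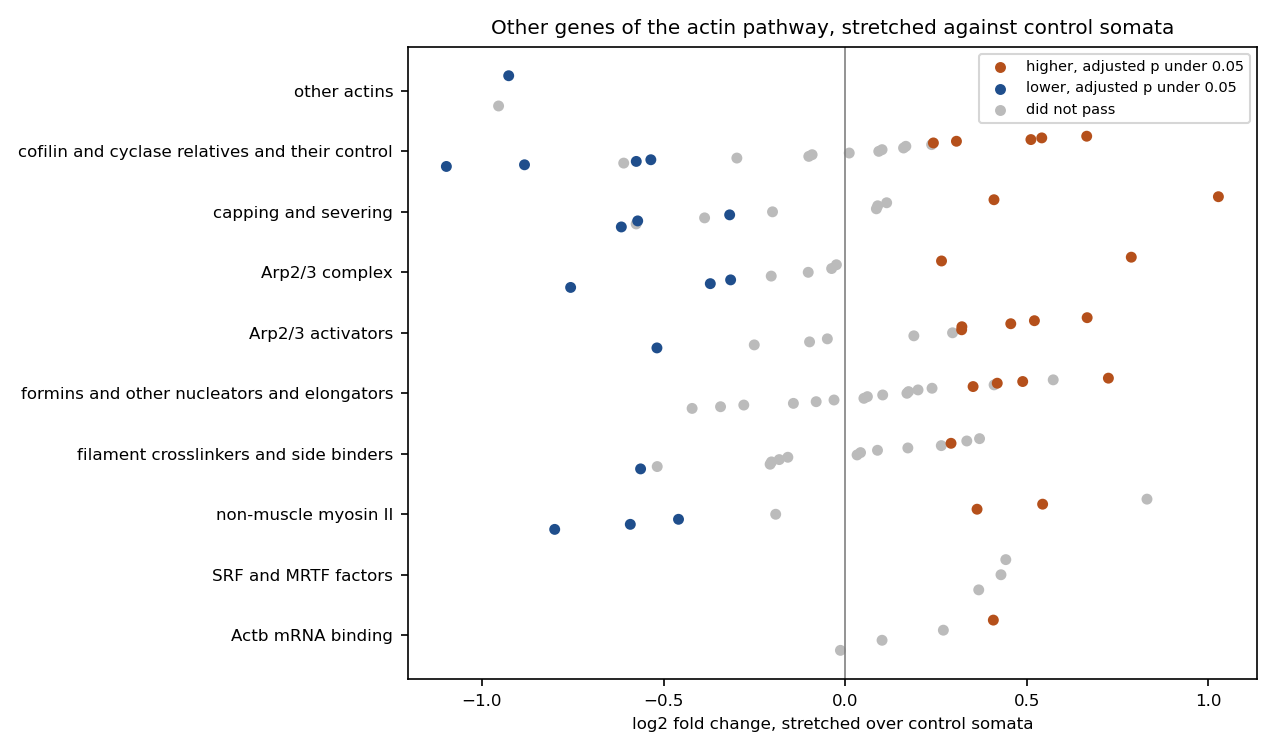
Log2 fold change in somata, stretched over control (horizontal axis), of the other actin pathway genes tested, for 10 of the lists (vertical axis, each gene a point). Orange genes rose (22), blue genes fell (16) and grey genes did not pass (61), and most lists hold genes on both sides.

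The third comparison asks whether stretch changed these mRNAs in axons. No difference was detectable: 0 of the 9 members tested passed with edgeR (adjusted p = 0.9998 for each), 0 had an unadjusted p under 0.05, and DESeq2 and limma voom also called 0. Of all 4947 genes tested 0% passed with edgeR, 46 had an unadjusted p under 0.05, DESeq2 called 18 and limma voom 9. No member lacked overlap between the groups, as 0.323% of genes did. Cap1 fell below the filter on low counts. The median log2 fold change was -0.06 over the 9 members and 0.02 over all genes.

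The precision differed widely between members. For Cfl1 the log2 fold change was -0.06 (SE 0.18), for Tmsb4x -0.30 (SE 0.17), for Tmsb10 -0.31 (SE 0.21) and for Actb -0.05 (SE 0.27). For Pfn1 it was -0.16 (SE 0.35), for Actg1 -0.03 (SE 0.51) and for Dstn 0.77 (SE 0.68), and for Pfn2 and Gsn the SEs were 1.46 and 1.94, so that changes of several fold could not have been detected there. Tmsb4x in stretched axons lay in 2 bands, with 5483, 6269 and 7693 CPM in replicates 4, 1 and 2 and 3369, 3527 and 3700 CPM in replicates 5, 6 and 8, and Tmsb10 split the same way, at 2491 CPM or more and at 1919.8 CPM or less. In control axons no library was below 5299 CPM of Tmsb4x or 2252 CPM of Tmsb10.

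Whether stretch acted differently in axons and somata was tested as an interaction over all 4 groups. None of the 10 members passed with edgeR, and 0 had an unadjusted p under 0.05, while 21.8% of 16113 genes passed (12.8% with a positive and 8.93% with a negative value). DESeq2, limma voom and a fit with a replicate block called 0 members too, and 1464, 0 and 6 of all genes. The last 2 fits called so few genes that their 0 says little about the members. For Actb the interaction was 0.43 on the log2 scale (SE 0.31, edgeR adjusted p = 0.598) and for Cfl1 0.27 (SE 0.22, adjusted p = 0.726). The effects of stretch on Actb in somata and in axons are thus not shown to differ. Without control axon replicate 5, Dstn (1.70, edgeR adjusted p = 0.0361) and Cap1 (adjusted p = 0.0123), which then had no count in control axons, passed.

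Of the other actin pathway genes none of 65 tested passed in axons under stretch (edgeR). Between axons and somata 2 were higher and 19 lower of 107 in control cultures, and 3 were higher and 20 lower of 108 in stretched ones. The shares were 1.87% and 17.8% in control cultures, against 0.856% and 34.4% of all genes tested, and 2.78% and 18.5% in stretched ones, against 0.843% and 28.4%. The genes higher in axons included Myl12a, a myosin regulatory light chain, at 128 ± 34.1 against 25.0 ± 3.33 CPM in control cultures (SD, n = 5 and 6; log2 fold change 2.07, edgeR adjusted p = 0.0083) and 194 ± 152 against 18.7 ± 1.66 CPM in stretched ones (2.81, adjusted p = 0.0045). Tpm4, a tropomyosin that coats filaments, was at 384 ± 146 against 149 ± 31.5 CPM in control cultures (1.11, edgeR adjusted p = 0.0342), a call kept in 4 of 11 fits without 1 library. In stretched cultures Arpc1b was at 397 ± 269 against 68.4 ± 6.04 CPM (2.02, edgeR adjusted p = 0.0042) and Myl6, the essential light chain, at 707 ± 223 against 294 ± 39.1 CPM (0.76, adjusted p = 0.0211), which was lost without stretched soma replicate 2 or 6 (adjusted p of up to 0.0529).

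Of the genes lower in axons, 14 of 19 in control and 12 of 20 in stretched cultures were at 0 in all axonal libraries of that condition. The formin and nucleator list had 9 of 19 lower in each condition (47.4%), against 34.4% and 28.4% of all genes. For genes at 0 in every axonal library the fold bound is given without a p, since genes simulated without a change were often called lower in that case. Diaph1, a formin, had no count in control axons and 20.7 ± 5.22 CPM in control somata (SD, n = 6), at least 163-fold lower against a floor of 3 counts per library. In stretched cultures Coro7 (85.7 ± 5.95 CPM in somata), Ssh1 (24.8 ± 1.92 CPM) and Coro2a (24.9 ± 4.08 CPM) had no axonal count, at least 615-, 178- and 178-fold lower. These bounds cover counting error only. The member Cap1 had counts in 1 of 5 control axon libraries, at 80.7 CPM there, so a 0 in 1 library can stand beside a high level in another. The bounds are therefore not read as measured differences in level. The formin Fmn2 (29.0 ± 2.55 CPM in stretched somata) and Mrtfa, a coactivator of the serum response factor (88.0 ± 6.58 CPM), had 1 count each over the 6 stretched axon libraries. In control cultures Cap2, the relative of Cap1, had 3 counts over the 5 axonal libraries against 30.3 ± 4.98 CPM in somata, and Eps8, a capping protein, 5 counts against 20.0 ± 5.00 CPM. Such absences were common among all genes: of those called lower in axons, 78.8% (control) and 77.1% (stretched) were at 0 in every axonal library of that condition.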

How the data were processed

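The authors deposited whole-number read counts per Ensembl gene for 23 libraries. Libraries were made from polyadenylated RNA with a low-input kit and molecular identifiers and sequenced as paired reads of 150 bases, per the labels' protocols. Per the submitters' processing notes, tools were FastQC 0.11.9, MultiQC 1.12, fastp 0.20.1, STAR 2.7.08a and HTSeq 0.13.5 with build mm10; the annotation, strand setting and use of the identifiers are not given in the sources used here. Reads that fit several places, 5.43% to 13.4% of a library's total, are counted apart and were left out with the other rows that name no gene. Floors of 3 counts cover counting error only.

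Symbols were matched by ID for 55141 of 55487 identifiers. Each comparison was fitted on its own groups with edgeR 4.0.16 in R 4.3.3 (filterByExpr, TMM, robust quasi-likelihood test), with Benjamini-Hochberg adjustment over all genes tested and a threshold of 0.05. The interaction used all 4 groups. SEs were taken from the fold change and the F statistic (absolute log2 fold change over the root of F). Ratios used a pseudocount of 1 CPM and SciPy 1.17.1. Transcript lengths, sequences and coordinates are from GENCODE (GRCm38), promoters from RefSeq. Fits were tested on simulated data: in somata most known changes of 4-fold were recovered. All known changes were larger than those of the members called in somata (at most 1.47-fold), so recovery of changes that small was not tested. Between axons and somata many of the known changes were missed, and genes simulated without a change were often called lower when the wide axonal spread left them at 0 in every axonal library, and rarely when all axonal libraries had counts, as they do for Actb, Actg1, Cfl1, Dstn, Pfn1, Tmsb4x and Tmsb10. The count of genes lower in axons is to be read with this in mind.

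All 10 members are named. Other pathway genes are named by a rule: adjusted p under 0.05, a mean of at least 10 CPM, and the 5 highest and 5 lowest fold changes per comparison. Srf, Mrtfb, Igf2bp1, Limk2 and Ssh1 (somata) were added after their values were seen. The members and lists were chosen with earlier results of these data known. Alternatives were other scalings, no filter, DESeq2 1.42.0, limma 3.58.1 (voom), a block for the replicate number, 1 fit over all groups, Eif2s3y sets, length and GC offsets (mgcv 1.9.3), another pseudocount (0.1 CPM) and each library left out. The count of 1 pathway list is not reported here.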

Additional observations from a re-analysis of the deposited data

Results flagged for a closer look

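In 7 of 40 sets of values (10 genes in 4 groups) 1 library lay apart from the rest by Dixon's criterion at 95%, where chance gives about 1 in 20. Actb was at 6542 CPM in control soma replicate 4, below the next library at 9154 CPM, and at 7430 CPM in stretched soma replicate 4, above the next at 6167 CPM. Tmsb10 was at 1053 CPM in control soma replicate 4, below the next at 1307 CPM. Actg1 was at 1009 CPM in stretched axon replicate 1, with the next at 535 CPM, and Dstn in the same library was at 1917 CPM, with the next at 719 CPM. Cap1 was at 80.7 CPM in control axon replicate 5 and at 0 in the other 4 control axons. Gsn was at 1109.5 CPM in control axon replicate 1, with the next at 239 CPM. In each soma group the library numbered 4 lies towards the other condition for Actb.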

How the results depend on the processing

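In somata the counts of genes and of members that passed were 3929 and 6. They became 0 and 0 with all 4 groups in 1 fit, 0 and 0 within the low Eif2s3y set, 2497 and 3 with length and GC offsets, and 2055 and 2 with these offsets and a replicate block (Cap1 and Gsn, while Actb and Cfl1 had edgeR adjusted p-values of 0.0507 and 0.0518). With 1 library left out genes called ran from 2666 to 6072 (the latter without control soma replicate 4). Without both libraries numbered 4, a fit added after the data were seen, Dstn passed as well (-0.24, edgeR adjusted p = 0.0418). Over all 14 alternative fits of somata from 0 to 5667 genes passed, so this count is not read as a result about the members. In axons genes called went from 0 to 18 (DESeq2), 9 (voom) and 3870 (all groups in 1 fit), with 0 members in each. Between axons and somata, genes called went from 5196 to 10714 (no filter) and 9912 (voom) in control cultures and from 4234 to 10931, 10203 and 7687 (no filter, voom, replicate block) in stretched ones. Members went from 5 to 2 (Actb and Tmsb4x) with no filter in both, to 3 in control and 2 in stretched cultures with the block. Leaving out 1 library gave 4542 to 8151 genes (highest without control axon replicate 5) and 4174 to 6499 (highest without stretched axon replicate 8). The interaction had 3509 genes, against 1464 (DESeq2), 0 (voom) and 6 (replicate block), and 0 to 2 members with 1 library left out. For these counts the cause was not tested.

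None of the values that reversed had passed the threshold, and those of Gsn between axons and somata moved most. In somata Pfn1 became 0.0075 (all groups), 0.18 (offsets) and 0.19 (offsets with block), and Pfn2 0.065, 0.11 and 0.11. In axons under stretch Actb became 0.0057 (RLE), 0.0057 (DESeq2) and 0.00023 (all groups); Actg1 0.061 (RLE), 0.055 (total counts), 0.061 (DESeq2), 0.066 (block) and 0.0042 (all groups); Cfl1 0.010 (RLE and DESeq2); Tmsb10 0.017 (block). Between control axons and somata Cfl1 became 0.095 (RLE), 0.24 (total counts) and 0.095 (DESeq2), and Gsn -5.18 (voom) and -0.46 (block). In stretched cultures Dstn became 0.17 (RLE), 0.55 (total counts), 0.046 (no filter) and 0.17 (DESeq2), and Gsn -1.38 (voom). The Tmsb4x interaction became -0.067 (RLE), -0.067 (DESeq2) and -0.028 (voom). With 1 library left out, values ran in axons under stretch from -0.18 to 0.22 (Actb), -0.24 to 0.14 (Actg1) and -0.12 to 0.048 (Cfl1), in control axons against somata from -0.095 to 0.059 (Cfl1) and -0.97 to 0.84 (Gsn), in stretched ones from -0.43 to 0.26 (Dstn), and in the interaction from -0.089 to 0.13 (Tmsb4x) and -0.015 to 0.24 (Tmsb10). The axonal ratios under stretch ran from -0.090 to 0.37 (Actb to Actg1), -0.11 to 0.099 (Tmsb4x to Tmsb10) and -0.83 to 2.06 (Pfn1 to Pfn2).

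The labels state no pairing of libraries, so replicate numbers shared by groups were not used in the main tests. Same-numbered libraries of the 2 soma groups had correlated deviations of 0.226 on average, against -0.0361 for different numbers. The lowest same-numbered value was 0.0028. All shared soma numbers fell in the same Eif2s3y set in both groups. In the other comparisons averages were 0.0264, 0.064 and 0.0131 for same numbers, against -0.0028, -0.0102 and -0.00258 for different ones. With the number as a replicate block Cap1 in somata did not pass (edgeR adjusted p = 0.0586) and Gsn did (-0.56, adjusted p = 0.0163). Between axons and somata the block left Actb, Tmsb4x and Tmsb10 in control and Actb and Tmsb4x in stretched cultures. Paired differences turned 2 axonal ratios under stretch, Actb to Actg1 (-0.26) and Tmsb4x to Tmsb10 (-0.26). They also ended both calls of Pfn1 to Pfn2 between axons and somata (exact permutation adjusted p = 0.333 each), where 4 and 6 pairs allow no p below 0.125 and 0.0312 before adjustment.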
